A study of Mus musculus with 4 samples.

Results

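The genes described here are 8 members of the MHC class II presentation pathway, the route by which a cell shows pieces of engulfed protein to CD4+ T cells. They are Cd74, H2-Aa, H2-Ab1, H2-Eb1, H2-DMa, H2-DMb1, Ciita and Ctss, found by their symbols among the 32285 genes of the deposited matrices, and each symbol matched 1 gene. Cd74 lies on chromosome 18 and is named here without its position or sequence. Their transcripts were followed across the cells of 4 whole prostate tumours, 1 per mouse. The 2 PCSp mice carried PB-Cre, Chd1L/L and SpopF133V with the mTmG reporter, and the 2 PSp mice carried PB-Cre and SpopF133V with the same reporter but no floxed Chd1. Every mouse of both genotypes was castrated at 9 months of age, and the tumours were collected 1 month later. PB-Cre is driven by the probasin promoter, which is active in prostate epithelium, so the floxed Chd1 alleles are targeted there and not in the immune or stromal cells of the tumour. The labels name the groups as tumours of separate mice and give no litter, date or sequencing batch, and with 2 mice per genotype each p-value below measures the spread between those mice alone. The design addresses what loss of Chd1, a chromatin remodeller, does to SPOP-mutant tumours after castration.

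A class II molecule is built from an alpha and a beta chain in the endoplasmic reticulum, where the invariant chain, the product of Cd74, fills its groove and guides it to endosomes. There cathepsin S, the product of Ctss, trims the invariant chain to a short remnant, and the H2-DM heterodimer exchanges that remnant for a peptide. CIITA is the co-activator on which transcription of the genes for the class II chains, the invariant chain and H2-DM depends. Dendritic cells, macrophages and B cells make class II at all times, and many other cells, epithelium among them, can be made to do so by interferon gamma. H2-Aa encodes the alpha chain and H2-Ab1 the beta chain of the A molecule, H2-Eb1 encodes the beta chain of the E molecule, and H2-DMa and H2-DMb1 encode the chains of H2-DM.

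In the mm10 genome with the GENCODE M21 annotation, 5 of the 8 genes lie together on chromosome 17. H2-DMa spans chr17:34119541-34139101 and H2-DMb1 chr17:34153072-34160230, both on the plus strand. H2-Ab1 spans chr17:34257689-34269419 on the plus strand, H2-Aa chr17:34282744-34287823 on the minus strand and H2-Eb1 chr17:34305867-34316674 on the plus strand. Ciita lies at chr16:10480059-10528418 and Ctss at chr3:95526786-95556403, both on the plus strand. H2-DMb1 and its neighbour H2-DMb2 are near-identical copies, so the split of reads between them is uncertain.

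The promoters of 4 members are shown because they carry the short elements known from class II genes. Each sequence is the 150 bases before the RefSeq start of the gene in GRCm38.p6, read 5' to 3' on the gene's own strand. The RefSeq start of H2-DMb1 lies inside the GENCODE span given above, so most of its window overlaps that span. In H2-Eb1, H2-DMb1 and H2-Aa the capitals TGATTGG mark the Y box, the element bound by the trimeric factor NF-Y. In H2-Eb1 and H2-DMb1 the capitals CTAGNAAC mark a part of the X box, the element bound by the RFX complex, and these letters were drawn from these same promoters. In H2-Aa the capitals TGACGTCA mark a cAMP-response-like element, which reads the same on both strands, and in Ctss the capitals follow GAAANNGAA, the core of an interferon-stimulated response element. The windows are chr17:34305717-34305866 on the plus strand for H2-Eb1, chr17:34153041-34153190 on the plus strand for H2-DMb1, chr17:34287824-34287973 on the minus strand for H2-Aa and chr3:95526636-95526785 on the plus strand for Ctss.
H2-Eb1: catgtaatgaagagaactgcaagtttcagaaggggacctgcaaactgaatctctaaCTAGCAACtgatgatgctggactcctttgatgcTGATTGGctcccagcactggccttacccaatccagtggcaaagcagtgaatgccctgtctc
H2-DMb1: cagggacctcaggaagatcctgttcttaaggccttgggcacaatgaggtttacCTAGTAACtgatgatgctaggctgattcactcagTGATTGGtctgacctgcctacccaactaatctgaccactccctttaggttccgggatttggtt
H2-Aa: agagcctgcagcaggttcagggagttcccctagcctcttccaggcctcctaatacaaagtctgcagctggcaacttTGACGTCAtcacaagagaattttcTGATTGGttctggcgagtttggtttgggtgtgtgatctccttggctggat
Ctss: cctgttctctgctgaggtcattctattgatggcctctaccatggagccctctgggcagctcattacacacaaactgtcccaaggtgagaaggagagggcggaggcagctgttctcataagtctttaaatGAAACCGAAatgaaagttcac
The Y box began 61 bases before the start in H2-Eb1, 63 in H2-DMb1 and 50 in H2-Aa, and the X box letters began 94 bases before it in H2-Eb1 and 97 in H2-DMb1. The cAMP-response-like element of H2-Aa began 74 bases before the start, and the interferon element of Ctss 21 bases before it. Both strands were searched in all 32841 RefSeq promoter windows, which run from 250 bases before the start to 50 after it. TGATTGG was found in 7.82% of the windows, TGACGTCA in 1.79%, GAAANNGAA in 8.56% and CTAGNAAC in 3.62%. The 2 windows of H2-DMa held none of these letters, which says nothing of the factors that act there.

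The 4 libraries held 9600 to 9656 cell barcodes in PCSp mice and 6539 to 7266 in PSp mice, with 66874620 to 90839725 UMIs in PCSp libraries and 75339204 to 86435756 in PSp libraries. A UMI, or unique molecular identifier, stands for 1 captured transcript. Filters on genes, UMIs, mitochondrial share and doublets left 7708 and 7883 cells in PCSp mice and 5211 and 5900 in PSp mice, and libraries shared 11 to 27 barcodes in pairs. The cells were clustered without the class II genes, and each class was named from markers that exclude them, so a name ends in "-like". Epcam, a surface protein of epithelium, stood at 2263 and 2434 CPM in epithelial-like cells of the PCSp mice and at 1941 and 1852 CPM in those of the PSp mice, where CPM is the UMIs of a gene per 1000000 UMIs of the class in that mouse. No epithelial state met the naming rule for a luminal class. Chd1 itself stood at 59.8 and 56.4 CPM in epithelial-like cells of PCSp mice, against 91.5 and 78.0 CPM in PSp mice, and a 3' tag may lie outside the deleted part of the gene, so this checks the labels only in part. Tags are taken at the 3' end of transcripts, so levels of different genes need no length scaling, but UMI capture can still differ between genes.

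Cd74 separated the cell classes into a high and a low tier. Dendritic-like cells, the cells specialised in presenting antigen to T cells, had 24828 and 23115 CPM in PCSp mice and 28246 and 19032 CPM in PSp mice. Macrophage/monocyte-like cells, the phagocytes of the tumour, had 19122 and 17878 CPM in PCSp mice and 21171 and 15319.7 CPM in PSp mice, and B/plasma-like cells had 11796.5 and 14915 CPM in PCSp mice and 12753 and 13025 CPM in PSp mice. In every mouse the dendritic-like level was the highest of these classes, although the ranges of dendritic-like and macrophage/monocyte-like cells over the 4 mice overlap. The dendritic-like cells are a sub-cluster of the macrophage/monocyte-like class and numbered 50 and 49 cells in PCSp mice and 19 and 36 in PSp mice. Other sub-clusters of that class, without a name, were as high. Over the 4 mice sub-cluster 7 had 19744 to 27951 CPM of Cd74 and sub-cluster 8 had 19089 to 26688 CPM. B/plasma-like cells were also few, with 60 and 75 cells in PCSp mice and 35 and 20 in PSp mice.

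Of the other classes, those with at least 50 cells in every mouse lay far below that tier. Epithelial-like cells had 166 and 90.5 CPM of Cd74 in PCSp mice and 109 and 125 CPM in PSp mice. Neutrophil-like cells had 155 and 115 CPM in PCSp mice and 125 and 114 CPM in PSp mice, endothelial-like cells 146 and 54.4 CPM in PCSp mice and 91.7 and 103 CPM in PSp mice, and T/NK-like cells 93.8 and 122 CPM in PCSp mice and 96.7 and 61.0 CPM in PSp mice. The ranges of these 4 classes over the mice overlap. Fibroblast-like cells had 56.3 and 62.3 CPM in PCSp mice and 27.0 and 23.7 CPM in PSp mice, below each of these 4 classes in every mouse except PCSp mouse 2, where endothelial-like cells were lower. The 2 remaining classes ranged from 14.98 to 74.0 CPM in smooth muscle/pericyte-like cells and from 0 to 138 CPM in glial-like cells, of which a mouse held 10 to 24.

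**Figure D1:**
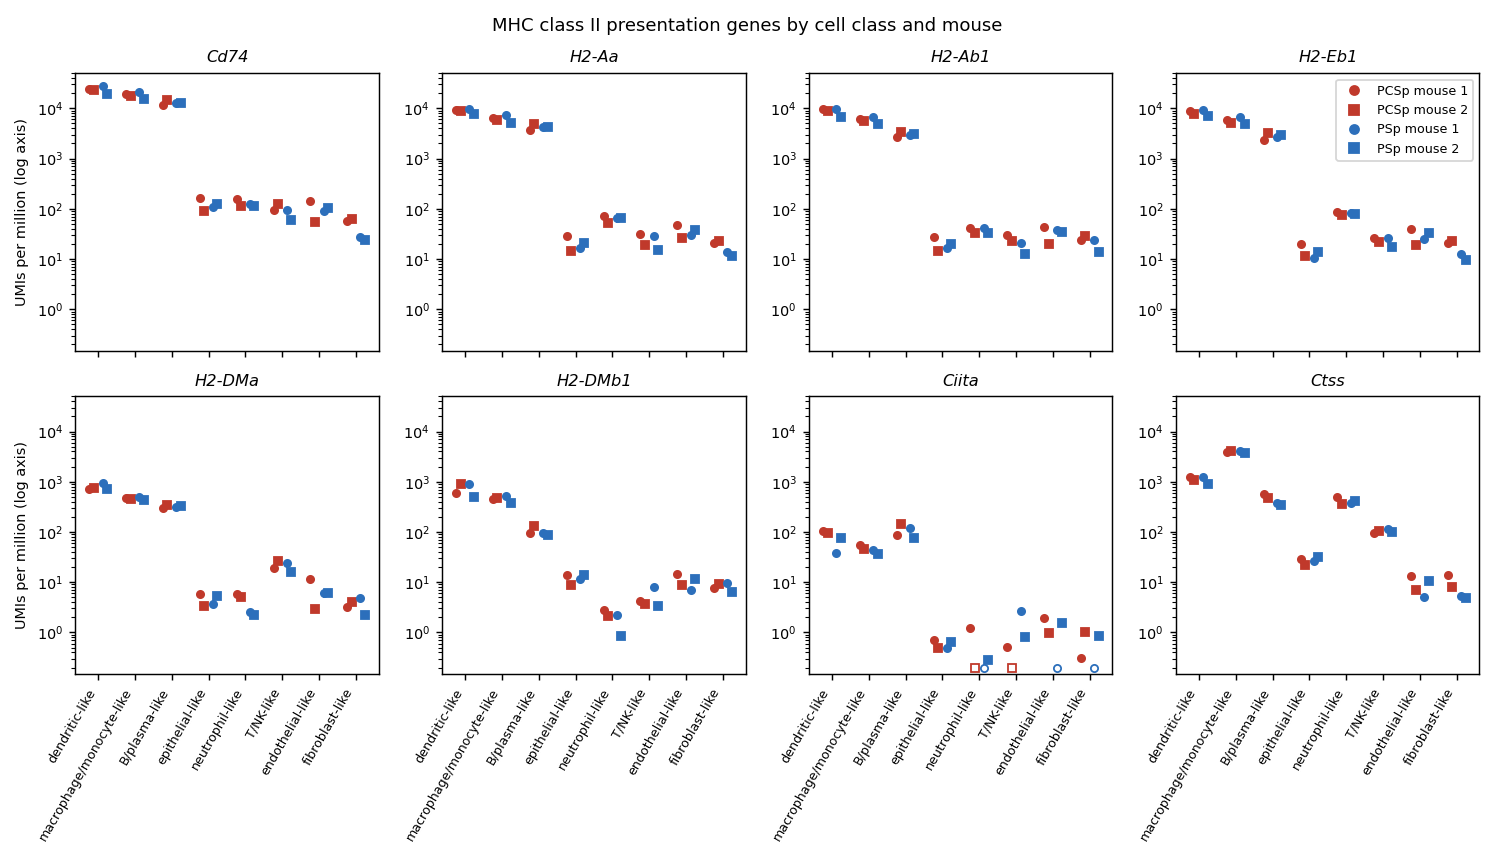
Level of each gene, as CPM on a log axis, in 8 cell classes, with 1 point per mouse (PCSp red, PSp blue) and open symbols at the foot of the axis for a mouse with 0 UMIs. Cd74, H2-Aa, H2-Ab1 and H2-Eb1 stand above 1000 in dendritic-like, macrophage/monocyte-like and B/plasma-like cells and at most at 166 in the rest, while Ctss is also high in neutrophil-like cells.

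The chains of the A and E molecules followed the same tiers. H2-Aa had 6479 and 5909.9 CPM in macrophage/monocyte-like cells of PCSp mice and 7258 and 5141 CPM in those of PSp mice, and 3632 to 4954 CPM in B/plasma-like cells over the 4 mice. In epithelial-like cells H2-Aa had 29.3 and 14.8 CPM in PCSp mice and 16.8 and 21.3 CPM in PSp mice. H2-Ab1 ranged from 4867 to 6796 CPM in macrophage/monocyte-like cells and from 14.6 to 27.3 CPM in epithelial-like cells, and H2-Eb1 from 4836 to 6621 CPM and from 10.6 to 20.3 CPM in the same classes. Over 28 sums of UMIs by mouse and class, the log2 levels of H2-Aa and H2-Eb1 had a Pearson correlation of 0.99, the highest among the members, and those of H2-DMb1 and Ctss one of 0.60, the lowest. Only sums with at least 50 cells entered. B/plasma-like cells thus entered from the PCSp mice only, and smooth muscle/pericyte-like cells from PCSp mouse 1 and PSp mouse 2 only. These sums share mice and libraries, so the correlations are a description.

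The H2-DM chains were not kept in 1 proportion across classes. H2-DMa had 482 and 463 CPM in macrophage/monocyte-like cells of PCSp mice and 492 and 428 CPM in those of PSp mice, where H2-DMb1 had 447 and 476 CPM in PCSp mice and 514 and 381 CPM in PSp mice. The ratio of H2-DMb1 to H2-DMa was thus 0.889 to 1.04 in macrophage/monocyte-like cells, against 0.258 to 0.380 in B/plasma-like cells and 2.39 to 3.12 in epithelial-like cells. The B/plasma-like ratio rests on 82 UMIs of H2-DMb1 over the 4 mice. In B/plasma-like cells the copy H2-DMb2 was the main beta chain, with 373 and 445 CPM in PCSp mice and 361 and 395 CPM in PSp mice, against 95.1 and 132 CPM of H2-DMb1 in PCSp mice and 94.8 and 85.3 CPM in PSp mice. In macrophage/monocyte-like cells the order was the reverse, with 33.9 and 24.2 CPM of H2-DMb2 in PCSp mice and 28.5 and 22.2 CPM in PSp mice. Of the 356 UMIs of H2-DMb2 in that class over the 4 mice, 246 were in the dendritic-like sub-cluster, at 129 to 257 CPM. H2-Oa and H2-Ob are the chains of the H2-DO molecule, which restrains H2-DM. H2-Ob ranged from 284 to 437 CPM in B/plasma-like cells and from 83.8 to 108 CPM in dendritic-like cells over the 4 mice. H2-Oa had 269 and 216 CPM in dendritic-like cells of PCSp mice and 264 and 203 CPM in those of PSp mice. B/plasma-like cells had 190 and 210 CPM of H2-Oa in PCSp mice and 203 and 181 CPM in PSp mice, from 17 to 52 UMIs per mouse. The dendritic-like level was the higher in each mouse, although the ranges of the 2 classes over the 4 mice overlap.

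Ciita transcripts were scarce in every class. B/plasma-like cells had 87.8 and 147 CPM in PCSp mice and 117 and 74.7 CPM in PSp mice, from 7 to 30 UMIs per mouse. Macrophage/monocyte-like cells had 54.8 and 45.0 CPM in PCSp mice and 43.4 and 37.2 CPM in PSp mice. The epithelial-like sums, although the deepest, held 45 and 22 UMIs of Ciita in PCSp mice and 27 and 40 in PSp mice, or 0.487 to 0.719 CPM. Neutrophil-like, T/NK-like, endothelial-like and fibroblast-like cells held 0 to 5 UMIs per mouse, too few to order them. Thus Ciita was higher in B/plasma-like than in macrophage/monocyte-like cells of every mouse, while Cd74 and the chains had the opposite order.

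Ctss had an order of its own. It was highest in macrophage/monocyte-like cells, with 3931 and 4167 CPM in PCSp mice and 4118 and 3710.5 CPM in PSp mice, and it was 912 to 1231 CPM in dendritic-like cells, below the macrophage/monocyte-like level of every mouse. B/plasma-like cells had 567 and 484 CPM in PCSp mice and 379 and 352 CPM in PSp mice. Neutrophil-like cells, in the low tier for Cd74, had 499 and 355 CPM in PCSp mice and 375 and 412 CPM in PSp mice, which overlaps the B/plasma-like range. T/NK-like cells had 95.3 to 114 CPM and epithelial-like cells 21.9 to 31.4 CPM over the 4 mice.

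Because the classes differ in size and in RNA content, the share of a tumour's transcripts differs from the level per class. Macrophage/monocyte-like cells, dendritic-like cells included, held 82.1 to 88.8% of the Cd74 UMIs of a tumour, 87.9 to 91.2% of those of H2-Aa and 75.0 to 85.3% of those of Ctss. Epithelial-like cells held 5.65 to 14.4% of the Cd74 UMIs and 2.86 to 7.85% of those of H2-Aa. They held a larger part of H2-DMb1, at 18.0 to 43.2%, and of Ciita, at 10.1 to 24.5%. Neutrophil-like cells held 7.60 to 10.0% of the Ctss UMIs and 0.529 to 0.732% of the Cd74 UMIs, and B/plasma-like cells held 4.29 to 15.3% of the Ciita UMIs.

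In droplet data, free RNA from macrophages can enter other barcodes, and it would keep the proportions of macrophage genes. The summed level of C1qa, C1qb and C1qc, complement genes that mark macrophages, was 0.111 to 0.160% of the macrophage/monocyte-like level in epithelial-like cells, 0.126 to 0.333% in fibroblast-like cells and 0.412 to 0.604% in neutrophil-like cells. At that proportion epithelial-like cells would hold 19.9 to 28.7 CPM of Cd74, and the measured level was 3.16 to 6.29 times as high. For H2-DMb1 the measured epithelial-like level was 11.6 to 28.6 times the level at that proportion, and for H2-Eb1 it was 1.43 to 2.25 times. In fibroblast-like cells the measured Cd74 level was 0.903 to 1.24 times the level at that proportion, that of H2-Ab1 1.57 to 2.48 times and that of H2-DMb1 5.89 to 13.6 times. Cd74 was 1.35 to 1.54 times and Ctss 18.9 to 23.0 times that level in neutrophil-like cells. Free RNA from other cells with class II transcripts was not gauged, and the source of the measured levels was not tested.

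The proportions among the members differed between classes. Cd74 was 2.92 to 3.03 times H2-Aa in macrophage/monocyte-like cells, 2.998 to 3.248 times in B/plasma-like cells and 5.66 to 6.51 times in epithelial-like cells. H2-Eb1 was 0.921 to 0.993 times H2-Ab1 in macrophage/monocyte-like cells and 0.634 to 0.802 times in epithelial-like cells, but 1.93 to 2.44 times in neutrophil-like cells. The neutrophil-like levels behind that ratio were 86.6 and 74.6 CPM of H2-Eb1 in PCSp mice and 81.9 and 80.2 CPM in PSp mice, beside 41.9 and 32.8 CPM of H2-Ab1 in PCSp mice and 42.4 and 32.9 CPM in PSp mice.

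Within the macrophage/monocyte-like class, Ctss and Cd74 did not keep 1 proportion. Retnla macrophage-like cells had 20571 and 17483 CPM of Cd74 in PCSp mice and 19089.6 and 15557 CPM in PSp mice, close to the class as a whole, but 1892 and 2426 CPM of Ctss in PCSp mice and 1912 and 1679 CPM in PSp mice. Cycling-like macrophages had 5329.9 and 17308 CPM of Cd74 in PCSp mice and 17062 and 9566 CPM in PSp mice, with 3322 to 4567 CPM of Ctss. The value of PCSp mouse 1 is below that of every other named macrophage state.

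Counted by cells, and with every cell thinned to 1000 UMIs so that depth is equal, 92.0% and 91.4% of macrophage/monocyte-like cells had a Cd74 UMI in PCSp mice and 93.7% and 90.5% in PSp mice. The same share was 10.5% (exact Clopper-Pearson 95% interval 9.45 to 11.6) and 7.24% (6.35 to 8.22) in epithelial-like cells of PCSp mice, and 9.31% (8.19 to 10.5) and 8.22% (7.22 to 9.31) in those of PSp mice. These intervals cover counting error only. For C1qa, which epithelium should lack, the shares in the same cells were 1.31% and 1.40% in PCSp mice and 0.882% and 0.978% in PSp mice. Thinning left out 397 and 360 epithelial-like cells in PCSp mice and 317 and 260 in PSp mice, and without it the Cd74 shares were 39.0% and 27.4% in PCSp mice and 32.6% and 33.3% in PSp mice, at median depths of 9347 and 7507 UMIs in PCSp mice and 10435 and 13656 in PSp mice. In fibroblast-like cells the thinned share was 4.13% and 3.46% in PCSp mice and 3.11% and 2.31% in PSp mice.

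The epithelial-like level was carried mainly by an interferon-high-like state, named from a marker list of antiviral genes that includes Ifit1 and Isg15 and no class II gene. Its 592 and 559 cells in PCSp mice and 535 and 518 cells in PSp mice had 415 and 208 CPM of Cd74 in PCSp mice and 258 and 312 CPM in PSp mice. Basal-like cells, which express Krt5 and Krt14, had 64.1 and 32.7 CPM in PCSp mice and 44.8 and 59.1 CPM in PSp mice, and squamous-like cells had 27.6 and 20.9 CPM in PCSp mice and 17.6 and 26.0 CPM in PSp mice. PCSp mouse 1 was highest and PCSp mouse 2 lowest in the interferon-high-like and basal-like states, with both PSp mice between them. The state held 6746 of 10377 and 2315 of 4040 epithelial Cd74 UMIs in PCSp mice, and 4443 of 6044 and 4676 of 7903 in PSp mice. A sub-cluster without a name, led by Cdhr1 and Spink5, had 129 and 84.1 CPM in PCSp mice and 60.8 and 94.4 CPM in PSp mice. A shallow sub-cluster without a name, with a median of 1402 UMIs per cell, had 175 and 170 CPM in PCSp mice and 203 and 93.2 CPM in PSp mice. Its H2-Aa level was 55.3 and 34.4 CPM in PCSp mice and 37.3 and 16.3 CPM in PSp mice, from 22 to 94 UMIs per mouse.

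Other members kept this order in part. H2-Aa had 55.4 and 23.7 CPM in interferon-high-like cells of PCSp mice and 31.3 and 37.9 CPM in those of PSp mice, and 3.48 to 7.16 CPM in squamous-like cells over the 4 mice. H2-DMb1 had 18.6 and 11.98 CPM in interferon-high-like cells of PCSp mice and 15.9 and 18.0 CPM in those of PSp mice, close to the 11.6 to 17.9 CPM of the Cdhr1 and Spink5 sub-cluster. Ctss had 42.2 and 32.2 CPM in interferon-high-like cells of PCSp mice and 42.6 and 48.0 CPM in those of PSp mice. A sub-cluster without a name, led by Reg1 and Reg3b, had 44.8 and 33.5 CPM of Ctss in PCSp mice and 34.9 and 31.3 CPM in PSp mice, below the interferon-high-like state in both PSp mice, and 35.6 to 51.4 CPM of Cd74. Basal-like cells had 3.95 to 8.56 CPM of Ctss. Cd74 was 7.48 to 8.80 times H2-Aa in interferon-high-like cells and 3.13 to 4.03 times in basal-like cells.

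**Figure D2:**
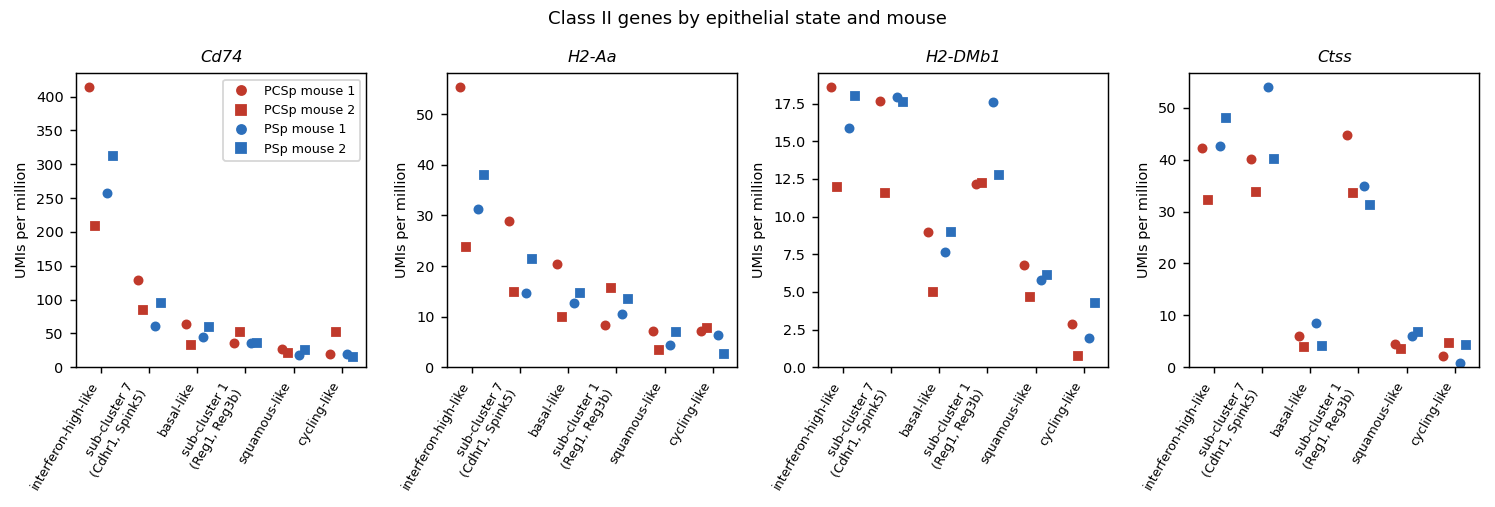
Level of 4 members, as CPM on linear axes that differ between panels, in 6 epithelial states and sub-clusters, with 1 point per mouse. Of the 6 shown, the interferon-high-like state has the highest Cd74 and H2-Aa in each mouse, with PCSp mouse 1 at the top, while Ctss stands at 31.3 to 54.0 in sub-clusters 7 and 1 and at 32.2 to 48.0 in the interferon-high-like state.

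A small share of the epithelial-like cells held a large part of the epithelial Cd74. Over the 4 mice 8648 epithelial-like cells, 66.8%, had 0 Cd74 UMIs. The 216 cells with 30 or more, 1.67% of the class, held 44.0% of its Cd74 UMIs. They numbered 86 and 18 in PCSp mice and 49 and 63 in PSp mice, and held 48.2% and 21.3% of the epithelial Cd74 UMIs in PCSp mice and 44.2% and 49.8% in PSp mice. PCSp mouse 2 thus had the fewest such cells and the smallest part of its Cd74 in them.

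Other genes were then counted in these 216 cells. An Epcam UMI was present in 100% of them, against 84.5% of the cells with no Cd74 UMI. Epcam is among the markers that named the class, so it is no separate check of identity. An H2-Aa UMI was present in 95.8%, against 6.603% of the cells with no Cd74 UMI. C1qa was detected in 23.6% and Ptprc, the pan-leukocyte gene, in 7.41%, against 4.54% and 1.35% of the cells with no Cd74 UMI. The median depth was 34173 UMIs in the 216 cells and 4885 in the cells with none, so each of these shares also moves with depth, whose part was not tested. Of the 216 cells, 81.5% belonged to the interferon-high-like state. Leaving out every epithelial-like cell with a UMI of Ptprc, C1qa, C1qb, C1qc, Cd79a, Lyz2 or Tyrobp left 164 and 77.4 CPM of Cd74 in PCSp mice and 112 and 126 CPM in PSp mice.

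**Figure D3:**
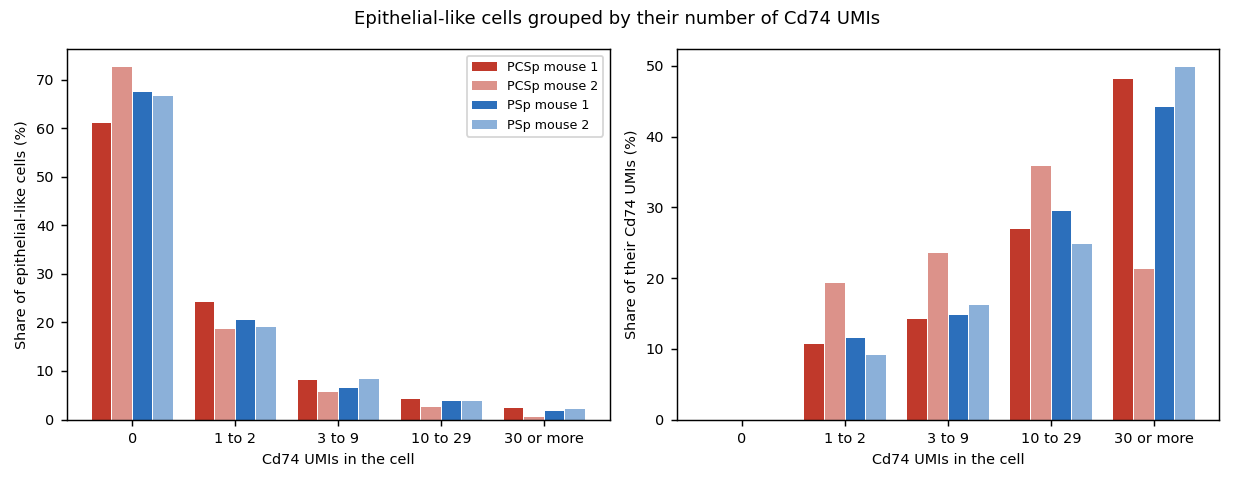
Epithelial-like cells grouped by their number of Cd74 UMIs, as the share of cells (left, percent) and the share of the class's Cd74 UMIs (right, percent), with 1 bar per mouse. The group with 30 or more UMIs holds at most 2.33% of cells but 21.3 to 49.8% of the Cd74 UMIs.

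The genes whose pattern over the 28 sums of 8 classes was most like the mean of the members were Ly86, with a Pearson correlation of 0.99, Pld4 with 0.96, Cd72 with 0.94, Cd86 with 0.93 and Cd83 and Ms4a6c with 0.91 each. H2-DMb2, H2-Oa, Snx2 and Cybb completed the 10 with 0.91, 0.90, 0.90 and 0.89. Ly86, which encodes the partner of the receptor RP105 on B cells and macrophages, had 705 and 507 CPM in macrophage/monocyte-like cells of PCSp mice and 682 and 663 CPM in those of PSp mice. Cd86 encodes a co-stimulatory ligand and had 223 and 196 CPM there in PCSp mice and 228 and 241 CPM in PSp mice.

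In the whole tumour, with the UMIs of all cells of a mouse summed, every member was higher in PCSp than in PSp tumours, by 0.25 to 0.61 on the log2 scale, but none passed the test. Cd74 had 1098 and 1207 CPM in PCSp tumours and 963 and 719 CPM in PSp tumours, a log2 difference of 0.42 ± 0.15 (SE, edgeR adjusted p = 0.510). Ciita had 3.5997 and 3.678 CPM in PCSp tumours and 2.51 and 2.14 CPM in PSp tumours, a difference of 0.61 ± 0.15 (SE, edgeR adjusted p = 0.449). Both PCSp tumours lay above both PSp tumours for all 8 members, as they did for 25.6% of the 19056 genes with at least 20 UMIs. At an unadjusted edgeR p under 0.05 the count was 8 members and 1689 genes, and at an adjusted p under 0.05 it was 0 members of 8 and 0 of 17857 genes, or 0%. DESeq2 called 242 genes and 0 members.

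Macrophage content moved in the same sense as these sums. Macrophage/monocyte-like cells made up 8.58% and 8.94% of the cells of PCSp tumours and 7.004% and 7.390% of those of PSp tumours, and C1qa stood at 275 and 305 CPM in PCSp tumours and at 217 and 213 CPM in PSp tumours. In whole-tumour sums, more cells of a type and more RNA per cell cannot be told apart. Within macrophage/monocyte-like cells the median log2 difference of the 8 members was -0.01 and their range -0.08 to 0.28. There 4 members were higher and 4 lower, 0 of 8 passed, and 7 of 10090 genes passed, or 0.0694%. Cd74 differed by -0.02 ± 0.16 and H2-Aa by -0.04 ± 0.17 in these cells (SE, edgeR adjusted p = 0.994 and 0.987). Both PCSp mice lay above both PSp mice for 1 of the 8 members, Ciita, and for 21.8% of the 11272 genes with at least 20 UMIs in these cells. Ciita differed by 0.28 ± 0.16 (SE, edgeR adjusted p = 0.891).

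In epithelial-like cells, the compartment in which Chd1 is targeted, 6 members were higher and 2 lower in PCSp mice, with a median log2 difference of 0.10 and a range of -0.20 to 0.35. None of the 8 passed, and 0 of 16482 genes passed, or 0%, beside 1303 at an unadjusted edgeR p under 0.05 and 192 called by DESeq2. Cd74 differed by 0.11 ± 0.28 and H2-Aa by 0.19 ± 0.33 (SE, edgeR adjusted p = 0.947 and 0.910). The genotypes overlapped for all 8 members, since PCSp mouse 1 was the highest of the 4 mice for 6 of them and PCSp mouse 2 the lowest for 6. Without PCSp mouse 1 all 8 members were lower in PCSp, with a median of -0.38, and without PCSp mouse 2 the median was 0.39, so the direction rests on which mouse is kept. The difference between the epithelial-like and the macrophage/monocyte-like genotype effects was tested as an interaction, in which 0 of 8 members and 8 of 15723 genes passed, or 0.0509%. H2-Eb1 had the largest interaction of the members, at 0.39 ± 0.26 (SE, edgeR adjusted p = 1).

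The epithelial states showed no called member either. In interferon-high-like cells 6 members were higher and 2 lower in PCSp mice, and 0 of 8 members and 0 of 13174 genes passed, or 0%. In basal-like cells 0 of 7 members and 5 of 12580 genes passed, or 0.0397%, and in squamous-like cells 0 of 7 members and 30 of 11567 genes, or 0.259%. Ctss had 4.47 and 3.48 CPM in squamous-like cells of PCSp mice and 6.1004 and 6.7179 CPM in those of PSp mice, a log2 difference of -0.73 ± 0.27 (SE, edgeR adjusted p = 0.377).

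In fibroblast-like cells 6 of the 7 members with enough UMIs were higher in PCSp mice, with a median log2 difference of 0.76. Cd74 differed by 1.19 ± 0.15 (SE, edgeR adjusted p = 0.291), and both PCSp mice lay above both PSp mice. H2-Eb1 had 20.6 and 22.6 CPM in PCSp mice and 12.8 and 9.60 CPM in PSp mice, and Ctss had 13.8 and 8.09 CPM in PCSp mice and 5.41 and 4.80 CPM in PSp mice, with differences of 0.91 ± 0.20 and 1.09 ± 0.34 (SE, edgeR adjusted p = 0.998 for each). None of the 7 passed, and 0 of 12159 genes passed, or 0%, beside 463 at an unadjusted edgeR p under 0.05. With DESeq2, which called 6 genes, or 0.0493%, Cd74 passed with an adjusted p of 0.0280. With each mouse left out in turn, the Cd74 difference ranged over 1.12 to 1.27. With no filter on low counts Cd74, H2-Eb1 and Ctss passed in edgeR, in a fit that called 157 of 20047 genes. Both PCSp mice lay above both PSp mice for 17.9% of the 13414 genes with at least 20 UMIs in these cells.

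Macrophage markers moved with the fibroblast-like values. C1qa stood at 12.003 and 16.39 CPM in fibroblast-like cells of PCSp mice and at 7.13 and 6.21 CPM in those of PSp mice, and C1qb at 14.9 and 16.4 CPM in PCSp mice and at 8.11 and 7.06 CPM in PSp mice. Leaving out fibroblast-like cells with an immune UMI left Cd74 at 35.6 and 23.9 CPM in PCSp mice and at 17.4 and 15.3 CPM in PSp mice, a difference of 0.85. The difference of H2-Eb1 was 1.13 in these cells, that of Ctss 1.01 and that of H2-Aa 0.24, with an edgeR adjusted p of 1.00 for each of the 4. H2-Eb1 had 17.5 and 11.53 CPM there in PCSp mice and 6.30 and 6.95 CPM in PSp mice, without overlap, while the genotypes overlapped for Ctss and H2-Aa.

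Among the remaining classes 0 members passed. In neutrophil-like cells 0 of 6 members and 8 of 9097 genes passed, or 0.0879%. H2-DMa had 5.89 and 5.11 CPM there in PCSp mice and 2.54 and 2.27 CPM in PSp mice, from 7 to 19 UMIs per mouse, a difference of 1.14 ± 0.42 (SE, edgeR adjusted p = 0.423). In T/NK-like cells 0 of 6 members and 29 of 7828 genes passed, or 0.370%, and H2-Ab1 had 30.2 and 23.0 CPM in PCSp mice and 20.9 and 12.4 CPM in PSp mice, a difference of 0.67 ± 0.30 (SE, edgeR adjusted p = 0.584). In endothelial-like cells 0 of 6 members and 4 of 9117 genes passed, or 0.0439%.

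**Figure D4:**
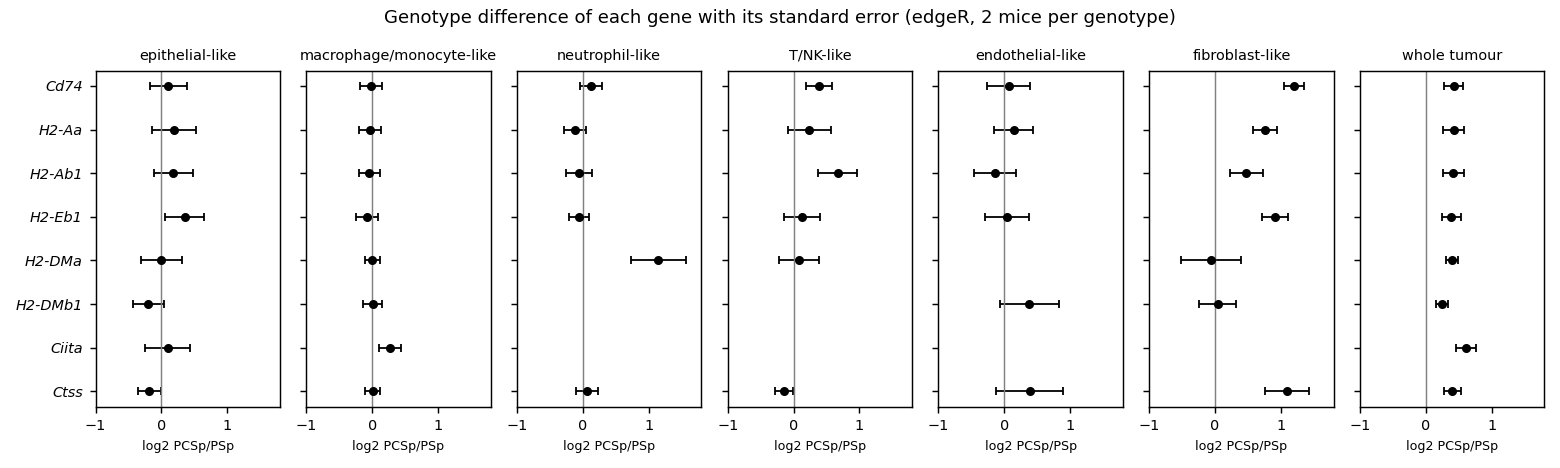
Log2 ratio of PCSp over PSp with its standard error for each member in 6 classes and in the whole tumour (edgeR, 2 mice per genotype), where a missing point marks a gene with too few UMIs for the test. Members lie near 0 in macrophage/monocyte-like and epithelial-like cells, above 0 for 6 of 7 in fibroblast-like cells and above 0 for all 8 in the whole tumour, and none passed the adjusted threshold.

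Genes that interferon gamma induces were set beside the members in the epithelium, without a test of the one against the other. All 18 genes of that list were lower in epithelial-like cells of PCSp mice, with a median log2 difference of -0.72, beside a median of -0.01 over all genes tested. The genotypes did not overlap, with PCSp lower, for 14 of the 18 genes, and for 17.2% of the 17608 genes with at least 20 UMIs. None of the 18 passed in edgeR. At an unadjusted edgeR p under 0.05 the count was 10 of the 18, beside 1303 of 16482 genes, of which 606 were lower. DESeq2 called Gbp3, Irgm1, Igtp, Iigp1 and Tap1 among the 192 genes that it called in this sum. Tap1, which carries peptides to class I molecules, had 44.4 and 35.4 CPM in PCSp mice and 63.9 and 57.2 CPM in PSp mice, a difference of -0.62 ± 0.12 (SE, edgeR adjusted p = 0.403). Gbp3, a guanylate-binding protein, had 13.5 and 12.1 CPM in PCSp mice and 23.8 and 18.4 CPM in PSp mice, a difference of -0.74 ± 0.14 (SE, edgeR adjusted p = 0.403).

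The list and the members were also set side by side in the states. In interferon-high-like cells all 18 list genes were lower in PCSp mice, with a median of -0.65, where 6 of 8 members were higher with a median of 0.15. The genotypes overlapped there for 7 of the 8 members, and the share over all genes was not counted in this state. Without PCSp mouse 1 the median of the members was -0.49, and without PCSp mouse 2 it was 0.45, so their direction rests on which mouse is kept. In macrophage/monocyte-like cells 6 list genes were higher and 11 lower, with a median of -0.16, and in endothelial-like cells 15 were higher and 2 lower, with a median of 0.45. In basal-like cells 1 was higher and 14 lower, in neutrophil-like cells 1 and 15, in fibroblast-like cells 4 and 13, and in T/NK-like cells 2 and 14. No list gene passed in edgeR in these classes apart from T/NK-like cells. In T/NK-like cells, where interferon gamma is known to be made, Ifng had 169 and 154 CPM in PCSp mice and 139 and 151 CPM in PSp mice. There Cxcl10, a chemokine that draws T cells, fell to 147 and 126 CPM in PCSp mice, against 363 and 486 CPM in PSp mice, a difference of -1.68 ± 0.15 (SE, edgeR adjusted p = 0.000589).

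**Figure D5:**
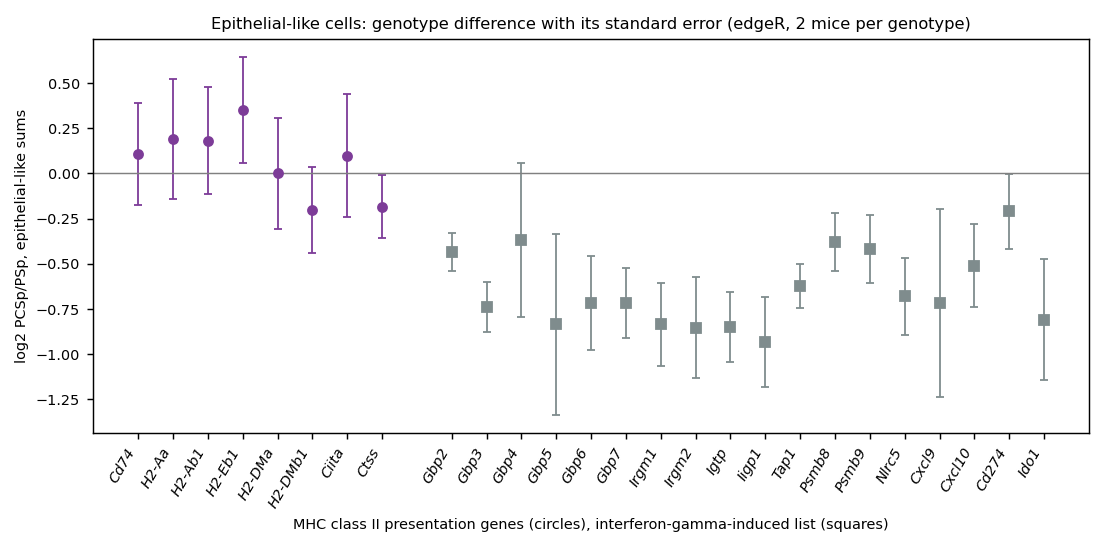
Log2 ratio of PCSp over PSp in epithelial-like cells with its standard error (edgeR, 2 mice per genotype) for the 8 members (circles) and the 18 genes of the interferon-gamma-induced list (squares). The 8 members lie on both sides of 0 and all 18 list genes lie below it, and none of them passed the adjusted threshold.

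The other genes of the pathway were tested in the same fits, and none of them passed in epithelial-like or macrophage/monocyte-like cells. Of 12 antigen-processing genes, 3 were higher and 9 lower in epithelial-like cells of PCSp mice, and 4 higher and 8 lower in macrophage/monocyte-like cells. Lgmn, an endosomal protease, had 746 and 772 CPM in macrophage/monocyte-like cells of PCSp mice and 898 and 944 CPM in those of PSp mice, a difference of -0.32 ± 0.10 (SE, edgeR adjusted p = 0.782). Of the 10 genes for transcription of class II, such as Rfx5, Nfya and Creb1, 6 were higher and 4 lower in both classes, with medians of 0.07 in epithelial-like and 0.04 in macrophage/monocyte-like cells. Of 9 interferon gamma signal genes tested, 6 were higher and 3 lower in both classes.

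Receptors and partners of class II were mixed. Of 9 such genes 6 were higher and 3 lower in epithelial-like cells of PCSp mice, and 3 higher and 6 lower in macrophage/monocyte-like cells. Cd44, which forms a receptor complex with the invariant chain, had 255 and 287 CPM in epithelial-like cells of PCSp mice and 377 and 332 CPM in those of PSp mice, a difference of -0.40 ± 0.11 (SE, edgeR adjusted p = 0.496). Mif, the ligand of the invariant chain at the cell surface, had 954 and 979 CPM there in PCSp mice and 1088 and 1166 CPM in PSp mice, a difference of -0.24 ± 0.09 (SE, edgeR adjusted p = 0.627). Cxcr4, a co-receptor of that complex, had 2.24 and 2.04 CPM there in PCSp mice and 1.48 and 1.36 CPM in PSp mice, a difference of 0.57 ± 0.19 (SE, edgeR adjusted p = 0.571). Cd80, a co-stimulatory ligand, had 21.4 and 21.7 CPM in macrophage/monocyte-like cells of PCSp mice and 14.1 and 15.7 CPM in those of PSp mice, a difference of 0.49 ± 0.19 (SE, edgeR adjusted p = 0.830). Lag3, a receptor for class II, had 19.05 and 15.8 CPM in macrophage/monocyte-like cells of PCSp mice and 24.7 and 34.1 CPM in those of PSp mice, a difference of -0.80 ± 0.22 (SE, edgeR adjusted p = 0.679).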

How the data were processed

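Single-cell libraries from 4 tumours were made with 10x Genomics 3' v3 reagents, per the labels' protocols. The authors deposited UMI counts per gene and barcode, made with Cell Ranger 6.1.2 and mm10 per the submitters' processing notes, and these are raw. The 4 libraries were named by genotype, and mice were numbered in accession order within a genotype, so a number pairs nothing. A chi-square statistic divided by its degrees of freedom was 38.5 between the PCSp mice and 54.8 between the PSp mice, far above sampling noise.

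The members, the gene lists and the markers were chosen with earlier results of these data known. The cell filter asked for 300 genes or more and 500 UMIs or more, with a mitochondrial share of 20% or less. Scrublet's automatic threshold marked 0 to 0.0242% of barcodes and so had not worked, and the top-scored 545 and 572 barcodes (PCSp) and 237 and 308 (PSp) were left out instead, 0.8% per 1000 barcodes. With scanpy 1.11.5, each cell was scaled to 10000 UMIs before the log, and 2000 variable genes without class II genes, 30 components, 15 neighbours and Leiden resolution 1 gave clusters. A name needed at least 3 markers with a log2 fold of 1 in 10% of cells and 10 leading genes that pointed to no other class. CPM are UMIs of a gene per 1000000 UMIs of the class sum.

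Sums per mouse and class with at least 50 cells per mouse were tested with edgeR 4.0.16 (quasi-likelihood F-test, TMM, filterByExpr, two-sided, genotype as the term, R 4.3.3), with Benjamini-Hochberg adjustment over all genes tested and a threshold of 0.05. The interaction had mouse and class as further terms. Each SE printed with a log2 difference is the absolute difference divided by the square root of its F statistic, not a separately fitted value. DESeq2 1.42.0 was an alternative, beside library totals, no filter, each mouse left out, stricter cells, other clusterings, matched sub-clusters and thinning to 2000 UMIs. The edgeR step was checked on epithelial-like and macrophage/monocyte-like sums simulated with the same spread for all genes. It found 11.9% and 7.46% of changes of 0.5 on the log2 scale, and 67.2% and 64.2% of changes of 1. Of its calls, 16 of 133 and 4 of 115 were false. Named beside the members are list genes that passed, or the 3 of smallest p per list in epithelial-like and macrophage/monocyte-like cells, of which a part is printed, and the 10 genes most like the members with a mean of at least 20 CPM. H2-Ea and H2-Ea-ps are not analysed here. Part of the shared genotype and a result on a further gene are not reported here.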

Additional observations from a re-analysis of the deposited data

Results flagged for a closer look

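Among the classes and epithelial states tested, which leaves out those with under 50 cells in a mouse, 3 pairs had a member with both PCSp mice above both PSp mice in one and below them in the other. The difference between the classes was not tested in any of them. Of genes with at least 20 UMIs, 21.8% had both PCSp mice above both PSp mice in macrophage/monocyte-like cells and 17.9% in fibroblast-like cells. For the other classes of these pairs no share over all genes was counted. For Ciita the mean of the PCSp mice was 1.239 times that of the PSp mice in macrophage/monocyte-like cells, with both PCSp mice above both PSp mice, and 0.151 times in T/NK-like cells, where a mouse held 0 to 3 UMIs. For Ctss it was 2.149 times in fibroblast-like cells, with both PCSp mice higher, and 0.821 times in interferon-high-like cells, with both PCSp mice lower. The fibroblast-like ratio of 2.149 also stands against 0.621 for Ctss in squamous-like cells. C1qa moved with the fibroblast-like value, as described above, and its part in it was not tested.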

How the results depend on the processing

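With 2 mice per genotype, DESeq2 called up to 242 genes in a sum where edgeR called 0, so counts of all genes depend on the tool. The count of members called was 0 in every class and setting except fibroblast-like cells, against 0 there in the fit reported. It was 1 with DESeq2, where 6 of 12159 genes passed, and 3 with no filter on low counts, where 157 of 20047 passed. The count also moved when some mice were left out. The Cd74 difference in epithelial-like cells turned to -0.0097 without cells with an immune UMI and ranged over -0.38 to 0.46 with each mouse left out, being -0.38 without PCSp replicate 1 and -0.0093 without PSp replicate 1. That of H2-Aa ranged over -0.38 to 0.58, being -0.38 without PCSp replicate 1. In macrophage/monocyte-like cells the Cd74 difference turned to 0.0206 with library totals and 0.0276 with matched sub-clusters and ranged over -0.23 to 0.23, being 0.04 without PCSp replicate 2 and 0.23 without PSp replicate 1. The cause was not tested. Of the alternatives for named genes 162 kept direction and side of the threshold, 9 gained a call, 3 lost it and 8 reversed.

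The number of genes called moved by over 1.5 times. It was 0, against up to 192, in epithelial-like cells, 7 against 5 to 200 in macrophage/monocyte-like, 8 against 8 to 432 in neutrophil-like, 0 against 0 to 157 in fibroblast-like, 29 against 23 to 154 in T/NK-like and 4 against 0 to 176 in endothelial-like cells. It was 5 against 2 to 453 in basal-like, 0 against 0 to 612 in interferon-high-like and 30 against 15 to 589 in squamous-like cells, 0 against 0 to 242 in the whole tumour and 8 against 8 to 122 for the interaction. The interferon-high-like and squamous-like tests, the no-immune-UMI setting for fibroblast-like cells, the setting without macrophage sub-cluster 4 and the shares without thinning were chosen after seeing the data.

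The mean share of epithelial-like cells with a Cd74 UMI was 13.3% in PCSp and 12.5% in PSp mice at 2000 UMIs and 33.2% and 33.0% without thinning. Without each mouse in turn it ranged over 7.24 to 10.5% in PCSp and 8.22 to 9.31% in PSp mice. In macrophage/monocyte-like cells it was 95.2% in PCSp mice both at 2000 UMIs and without thinning, with 91.4 to 92.0% in PCSp and 90.5 to 93.7% in PSp mice without each mouse. In neutrophil-like cells it was 15.2% in PCSp and 12.1% in PSp mice at 2000 UMIs and 17.2% and 15.1% without thinning, with 8.33 to 10.2% in PCSp and 6.63 to 8.13% in PSp mice without each mouse.

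No paired analysis was possible because the labels give no replicate numbers, and those used here follow accession order. Luminal-like and luminal-progenitor-like sums were not run, since no sub-cluster met the naming rule. Ciita counts outside macrophage/monocyte-like, B/plasma-like and epithelial-like cells were too few to compare.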

Other observations

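A small group of macrophage/monocyte-like cells kept Ctss but had little Cd74. Sub-cluster 3, chosen after its values were seen, held 5 and 21 cells in PCSp mice and 3 and 6 in PSp mice and was led by Ctsk, Gpnmb, Npy, Spp1 and Mmp8. Its Cd74 level was 50.5 and 628 CPM in PCSp mice and 48.5 and 905 CPM in PSp mice, far below every other sub-cluster of the class. Its Ctss level was 5135 and 6913 CPM in PCSp mice and 3216 and 4358 CPM in PSp mice. C1qa in sub-cluster 3 stood at 5017 and 1501 CPM in PCSp mice and at 3474 and 3210.3 CPM in PSp mice. Ctsk encodes cathepsin K, a collagen-degrading protease best known from osteoclasts, and Gpnmb and Spp1 are expressed by many tissue macrophages.

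Sub-cluster 4 of the same class, 485 cells with a median of 853 UMIs, was led by genes that include the keratins Krt18 and Krt19, yet had 20500.3 and 22330.1 CPM of Cd74 in PCSp mice and 20022 and 22952.3 CPM in PSp mice. In squamous-like cells Cxcl10 differed between genotypes by -2.11 on the log2 scale (edgeR adjusted p = 0.0339), and this call was lost without PSp replicate 1, without PSp replicate 2 and with the stricter cell filter, at adjusted p of 0.0800, 0.0509 and 0.179.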
